A study of Rattus norvegicus with 12 samples.

Results

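The genes described here are 6 subunits of the respiratory chain and the ATP synthase that are encoded on the mitochondrial genome: Co1, Co2 and Co3 of cytochrome c oxidase, Atp6 and Atp8 of the ATP synthase, and Cytb, the cytochrome b of complex III. They were taken by name and Ensembl rat identifier, not by their values, but earlier results of these data were known at that point. They make up 6 of the 32662 genes in the deposited files. The files carry identifiers only, so the names are those of the list that set the identifiers, and neither they nor markers of the captured tissue were checked against an annotation here. Poly(A) RNA was sequenced from laser-captured spinal dorsal horn (SC) and from the trigeminal nucleus caudalis (TNC), the first relays of pain and temperature input from the body and from the face. Both regions came from each of 6 naive male Wistar Han rats, aged 10 weeks, that had been housed for 2 weeks after arrival and received no treatment before they were anaesthetized with pentobarbital and lidocaine and perfused with cold saline. The 12 libraries thus form 6 within-rat pairs, which the design compares.

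Mitochondria keep a small circular genome that holds a few of the subunits of the respiratory chain, while the nuclear genome encodes the rest. All 6 genes are read from the same strand as parts of long polycistronic transcripts, which are cut at the tRNAs between the genes and then polyadenylated, so poly(A) selection retains their messengers. Complex III hands electrons from ubiquinol to cytochrome c, complex IV passes them on to oxygen, and the ATP synthase uses the resulting proton gradient to make ATP, the main energy supply of synapses and ion pumps in neurons.

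The libraries held 11223405 to 14591508 reads assigned to genes. At this depth the counting error was small for 5 of the 6 genes: the 95% Wilson interval of a gene's share of the library had a half-width of at most 1.18% of the share itself for Co1, Co2, Co3, Atp6 and Cytb, and of at most 6.78% for Atp8. These intervals cover counting error only. Alignments outside annotated genes made up 12.5% to 15.2% of all alignments in TNC and 14.5% to 15.7% in SC, and alignments to several places 12.7% to 13.4% and 13.5% to 13.8%.

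Together the 6 genes took 3.27% ± 0.211 of all gene reads in SC and 3.26% ± 0.613 in TNC (SD, n = 6). The mean was nearly the same in both regions, but the range was not. The SC libraries lay between 2.97% and 3.53% with a median of 3.30%, and the TNC libraries between 2.30% and 3.91% with a median of 3.31%. The SC range fell wholly inside the TNC range. Within rats the summed share was higher in TNC by 0.137 percentage points in R101, 0.647 in R102 and 0.414 in R103, and the difference was -0.0632 in R104, -0.384 in R105 and -0.789 in R106. The mean within-rat difference was -0.0063 ± 0.526 percentage points (SD, n = 6). The sign thus divided the rats evenly, and opposite differences cancelled in the mean. Taken as a share of all alignments instead, which counts those outside annotated genes as well, R104 was also higher in TNC, 4 of 6 rats in all, and the mean difference was 0.0753 ± 0.361 percentage points (SD, n = 6). In bulk tissue of this kind, fewer mitochondrion-rich cells and less mitochondrial RNA per cell cannot be told apart.

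Co1 (ENSRNOG00000034234), the subunit that carries the oxygen-reducing centre of cytochrome c oxidase, had the most reads of the 6 genes. Its level in CPM (read counts scaled to a common library size, here by trimmed mean of M values) was 9687 ± 765 in SC and 10439 ± 2035 in TNC (SD, n = 6). The SC libraries ranged from 8487 to 10513 CPM with a median of 9753, and the TNC libraries from 6920 to 12484 CPM with a median of 10793. The regions overlapped, and both the highest and the lowest of all 12 values were in TNC, in R102 and R106. The fitted log2 fold change was 0.09 ± 0.13, where the error is the standard error (SE) of the 6 within-rat differences of log2 CPM (Benjamini-Hochberg adjusted p = 0.452 in edgeR's quasi-likelihood test, blocked by rat). It was higher in TNC in 4 of 6 rats. Leaving out R106 gave a log2 fold change of 0.18 (adjusted p = 0.0511, edgeR) and leaving out R102 gave -0.01 (adjusted p = 0.944, edgeR). The edgeR test takes part of its error from the other genes, so its p does not measure the spread of these rats alone.

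Co2 (ENSRNOG00000030371) receives electrons from cytochrome c through its copper centre. It had 3198 ± 199 CPM in SC and 3275 ± 596 CPM in TNC (SD, n = 6). The SC values ran from 2961 to 3440 with a median of 3168, and the TNC values from 2272 to 3949 with a median of 3319. Again the SC libraries lay inside the range of the TNC libraries. The log2 fold change was 0.01 ± 0.11 (SE, adjusted p = 0.895, edgeR).

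Co3 (ENSRNOG00000030700), the other mitochondrially encoded core subunit of the oxidase, had 7732 ± 642 CPM in SC and 7876 ± 1686 CPM in TNC (SD, n = 6). The SC values ran from 6795 to 8586 with a median of 7845, and the TNC values from 5362 to 9675 with a median of 8054. The log2 fold change was 0.0014 ± 0.11 (SE, adjusted p = 0.99, edgeR), and 3 of 6 rats were higher in TNC. Both ends of the 12 values were again TNC libraries, R103 at the top and R106 at the bottom.

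Cytb (ENSRNOG00000031766), the subunit of complex III that oxidizes ubiquinol, was the one gene whose fitted value was below 0. It had 4908 ± 540 CPM in SC and 4627 ± 978 CPM in TNC (SD, n = 6). The SC values ran from 3975 to 5624 with a median of 4979, and the TNC values from 3417 to 5780 with a median of 4790. The log2 fold change was -0.11 ± 0.11 (SE), 4 of 6 rats were lower in TNC, and the difference did not pass the threshold (adjusted p = 0.261, edgeR).

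Atp6 (ENSRNOG00000031979) forms part of the proton channel of the ATP synthase. It had 6747 ± 689 CPM in SC, from 5559 to 7352 with a median of 6976, and 6859 ± 1482 CPM in TNC, from 4787 to 8605 with a median of 7042 (SD, n = 6). The log2 fold change was 0.00099 ± 0.099 (SE, adjusted p = 0.992, edgeR). Atp8 (ENSRNOG00000033299), a small membrane subunit of the same enzyme, is read from the same messenger as Atp6, and their reading frames overlap. It had 89.7 ± 12.01 CPM in SC, from 72.2 to 104.9 with a median of 91.6, and 91.5 ± 16.4 CPM in TNC, from 69.1 to 111 with a median of 87.5 (SD, n = 6). Its log2 fold change was 0.02 ± 0.13 (SE, adjusted p = 0.889, edgeR). Between 837 and 1305 reads per library were assigned to Atp8, against 58001 to 95175 to Atp6. The reads of Atp8 thus came to 1.33% ± 0.12 of those of Atp6 in SC and to 1.35% ± 0.111 in TNC (SD, n = 6). HTSeq's summary lines put 1.44% to 1.78% of alignments among those with an ambiguous gene, which are left out of the gene counts. How many of these fell where Atp8 and Atp6 overlap was not tested, so the level of Atp8 is uncertain. The log2 ratio of Atp8 to Atp6 differed between the regions by 0.02 ± 0.071 (SE, p = 0.688 in an exact two-sided permutation test that flips the sign of each rat's difference), and it was higher in TNC in 3 of 6 rats.

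**Figure D1:**
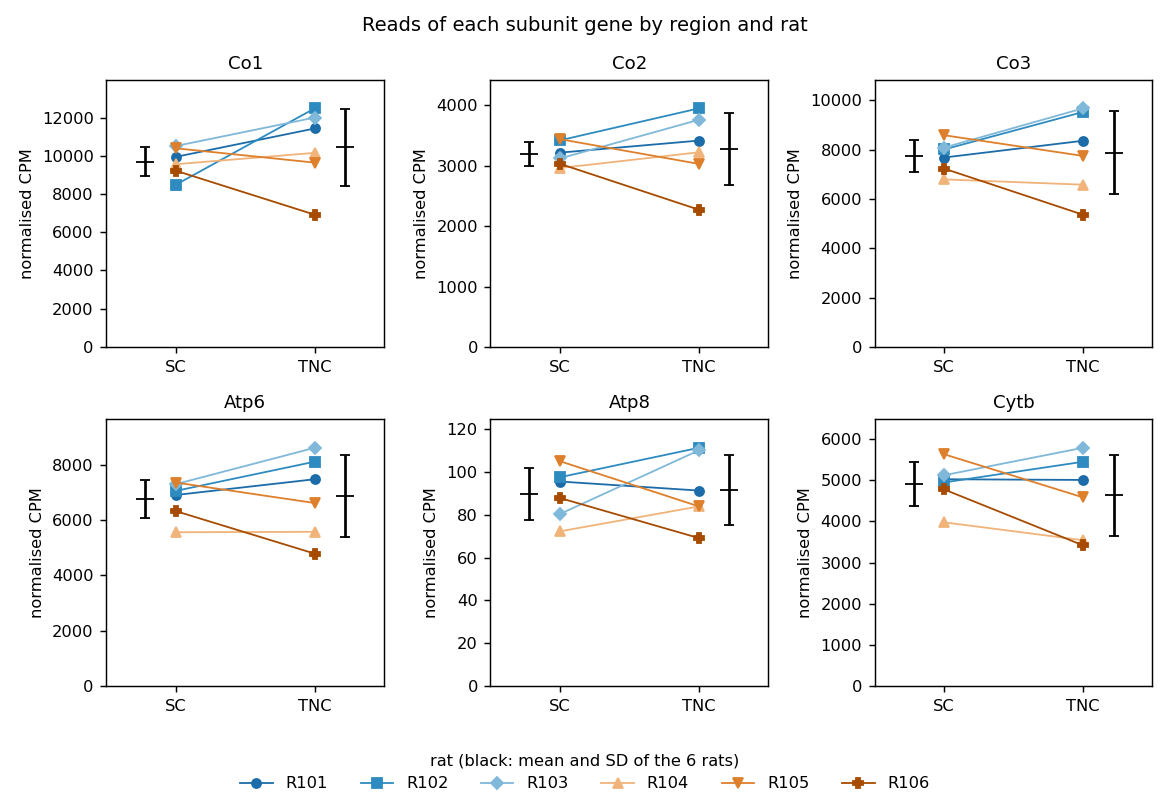
Normalised CPM (vertical axis, from 0) of each of the 6 genes in SC and TNC, with 1 line per rat and the mean and SD of the 6 rats in black. For Co1, Co2, Co3, Atp6 and Cytb the TNC libraries are spread more widely than the SC libraries, with R106 lowest in TNC; in Co1 the TNC values run from 6920 to 12484 CPM and the SC values from 8487 to 10513.

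Of the 6 genes, 0 were called between the regions (adjusted p under 0.05 in edgeR's test), where 30.3% of the 13833 genes tested did, 15.0% higher in TNC and 15.3% higher in SC. At an unadjusted p under 0.05 the count was also 0 of 6, against 40.9% of all genes. DESeq2, limma voom and edgeR's legacy fit each called 0 of 6 as well, both adjusted and unadjusted. The CPM ranges of the regions overlapped for each of the 6 genes, whereas they did not overlap for 10.6% of all genes. None (0) of the 6 had the same direction in all 6 rats, against 27.0% of all genes. The median log2 fold change was 0.0081 over the 6 genes and -0.0053 over all genes tested. The 6 genes share libraries and precursor transcripts and are therefore not 6 independent observations. The signs of Co2, Co3, Atp6 and Atp8 turned under upper-quartile scaling, and no direction is given for them.

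A p above the threshold does not show equal levels. Inverting the exact sign-flip permutation test gives an interval for the TNC to SC ratio that uses each gene's own 6 within-rat differences, spans their range and covers 96.9% if these differences are symmetric about their centre. It ran from 0.75 to 1.47 for Co1, from 0.749 to 1.21 for Co2 and from 0.741 to 1.2 for Co3. It ran from 0.757 to 1.18 for Atp6, from 0.788 to 1.37 for Atp8 and from 0.716 to 1.13 for Cytb. Each interval held a ratio of 1. The 95% intervals of limma voom, which takes part of its error from the other genes, were narrower, from 0.952 to 1.19 for Co1 and from 0.848 to 1.02 for Cytb.

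Most differences within single rats were larger than the mean, and they had both signs. In R102 and R103 all 6 genes were higher in TNC, by 0.14 to 0.56 and by 0.18 to 0.45 on the log2 scale. In R105 and R106 all 6 were lower, with log2 differences from -0.32 to -0.11 and from -0.48 to -0.34. In R101 and R104 4 of the 6 were higher and 2 lower, and the values ran from -0.07 to 0.20 and from -0.17 to 0.21. The genes therefore moved largely as a block from rat to rat, in both directions.

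Co1 shows the pattern in single values. It had 8487 CPM in the SC and 12484 in the TNC of R102, a ratio of 1.47. In R106 it had 9223 CPM in SC and 6920 in TNC, a ratio of 0.75. R102 also had the smallest gap between its regions in alignments outside annotated genes, a difference of -0.467 percentage points where the remaining rats had -2.32 to -1.89. R106 had the largest gap in depth, with 14591508 gene reads in SC and 12006226 in TNC. The part of either in these differences was not tested.

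**Figure D2:**
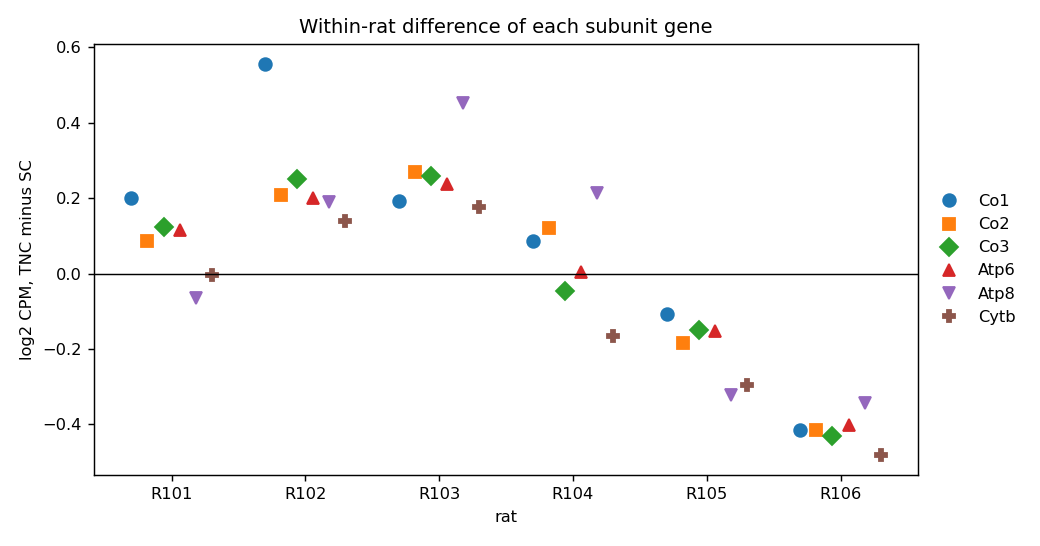
Difference in log2 CPM, TNC minus SC (vertical axis), in each rat (horizontal axis), with 1 marker per gene and a line at 0. All 6 markers lie above 0 in R102 and R103 and below 0 in R105 and R106, where they reach -0.48.

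The principal component PC2, the only component given here, held 10.4% of the variance over all genes. It placed both libraries of R101, R102 and R103 below 0 and both libraries of R104, R105 and R106 above 0, also with the 6 genes left out. These are the same sets of rats in which the summed share of the 6 genes among gene reads was higher and lower in TNC. The match rests on R104, whose difference in that share was only -0.0632 percentage points. On the scaled log2 CPM that the component uses, the mean of the 6 genes in R104 was higher in TNC, 11.38 against 11.34 in SC. On that scale the sets do not match. The component also parted TNC from SC within each rat, in opposite directions in the sets, so it does not sort the rats independently of the regional difference. The sets are not groups of the study, and the regional difference was not tested between them. The sample labels do not say whether the numbers of the rats follow an order of handling. The mean within-rat log2 difference in R101 to R103 ran from 0.10 (Cytb) to 0.32 (Co1) over the 6 genes, and in R104 to R106 from -0.32 (Cytb) to -0.15 (Co1). Because the sets follow the sign of the summed share, means of opposite sign are favoured and are no evidence of distinct groups of rats. In R104 itself 4 of the 6 genes were higher in TNC.

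The spread between rats was larger in TNC than in SC for 6 of 6 genes. The SD of log2 CPM lay between 0.09 and 0.20 in SC and between 0.26 and 0.33 in TNC. For Co2 it was 0.09 in SC and 0.28 in TNC, and for Co3 0.12 and 0.33. The difference in spread was not tested, and the share of all genes with a larger spread in TNC was not counted. On PC2, which draws on all genes, the TNC libraries also lay farther apart, from -29.6 to 22.7 against -12.9 to 4.21 in SC. The wider spread in TNC is therefore not shown to be particular to the 6 genes. The SD of the within-rat difference was 0.24 to 0.33 over the 6 genes, against a median of 0.26 over all 13833 genes, most of which have far fewer reads. Among the 87 genes that averaged 1000 CPM or more, a limit chosen after the data were seen, the median SD was 0.11. The 5 of the 6 genes in this class held ranks 1 (Co1), 5 (Co3), 6 (Co2), 7 (Cytb) and 9 (Atp6) among the 87. Of the same 87 genes, 48 (55.2%) were called between the regions. These 5 genes were thus among the 9 of the 87 with the most variable regional difference, while none (0) of the 5 was called. The 9 also held genes found below to be most like the 6, with SDs of 0.25 and 0.29, so the trait is not particular to the 5. The gene with the SD of 0.29 was called higher in TNC (adjusted p = 0.0356, edgeR).

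**Figure D3:**
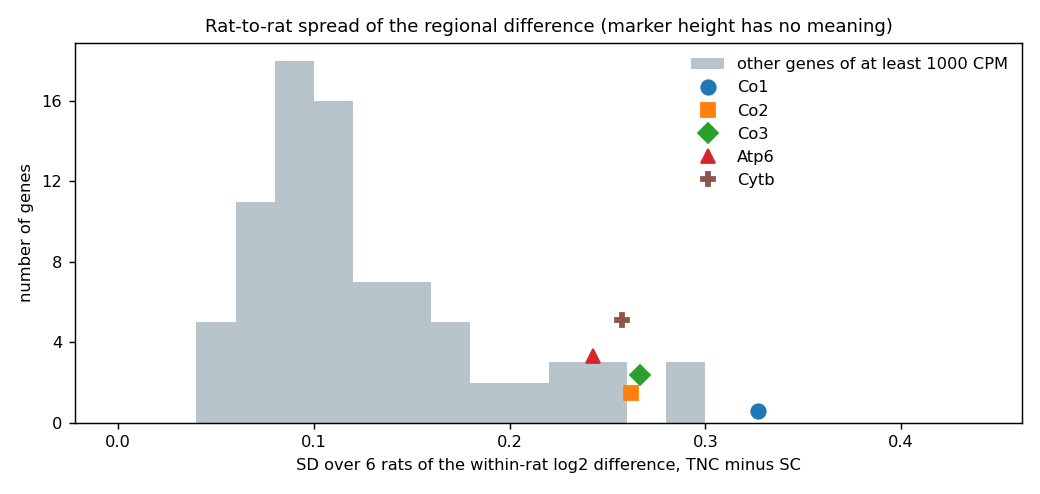
SD over the 6 rats of the within-rat log2 difference between TNC and SC (horizontal axis) for the genes that averaged 1000 CPM or more, as a histogram of the other genes (vertical axis, number of genes) with Co1, Co2, Co3, Atp6 and Cytb as markers whose height has no meaning. The 5 markers lie between 0.24 and 0.33, to the right of the median of 0.11; Atp8 is not in this class.

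The mix among the 6 genes was also compared, since it does not depend on how much of a library they take together. Cytb was the gene with a difference in the same direction in every rat. It made up 15.1% ± 0.743 of the reads of the 6 genes in SC and 13.96% ± 0.986 in TNC (SD, n = 6). Its share went from 15.3% to 13.98% in R101, from 15.4% to 13.7% in R102, from 14.95% to 14.5% in R103, from 13.7% to 12.1% in R104, from 15.8% to 14.4% in R105 and from 15.6% to 14.97% in R106, SC value first. The ranges of both regions overlapped, but 6 of 6 rats were lower in TNC, also those in which the total of the 6 genes was higher there. The mean difference was -1.18 ± 0.519 percentage points (SD, exact sign-flip permutation test, two-sided p = 0.0312, the smallest that 6 pairs allow, and adjusted p = 0.188 over the 6 genes). The result thus does not pass the correction. With 6 pairs, a single gene at the smallest p cannot pass it alone.

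None (0) of the other 5 genes had the same direction in all 6 rats. Co1 made up 29.99% ± 2.13 in SC and 31.5% ± 1.78 in TNC (SD, n = 6), which differed by 1.53 ± 1.94 percentage points (SD, exact sign-flip permutation test, p = 0.0938, adjusted p = 0.281). It was higher in TNC in 5 of 6 rats, by 4.99 points in R102 and with a difference of -0.679 points in R103. Without R102 the mean difference was 0.835 points. Co3 took 23.9% in SC and 23.7% in TNC, Atp6 20.8% and 20.6%, Co2 9.90% and 9.92%, and Atp8 0.277% and 0.278%. Their mean differences were at most 0.191 points in size, with adjusted p from 0.812 to 0.969 (exact sign-flip permutation test).

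**Figure D4:**
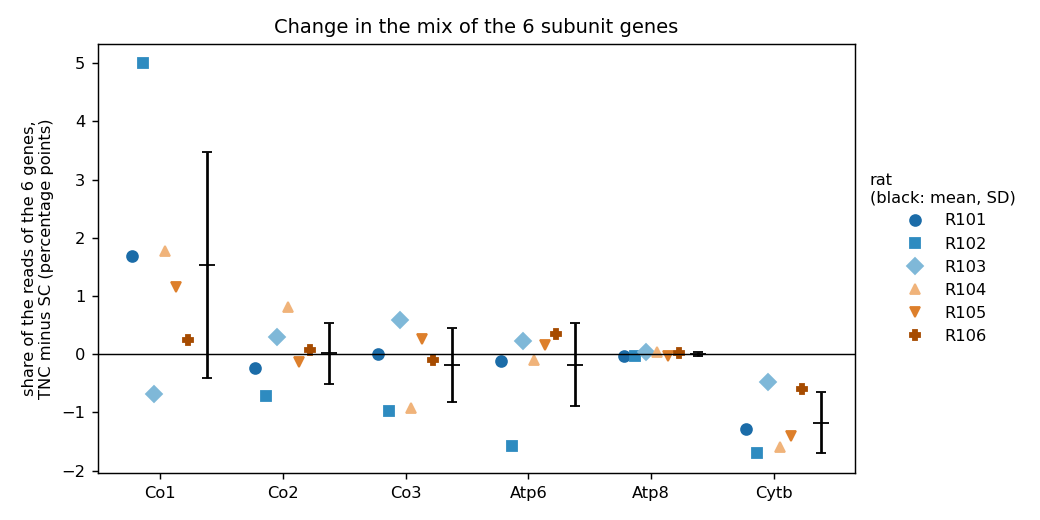
Difference between TNC and SC in the share that each gene takes of the reads of all 6 genes (vertical axis, percentage points), with 1 marker per rat and the mean and SD of the 6 rats in black. All 6 markers of Cytb lie below 0, between -1.70 and -0.479, while the markers of the other genes lie on both sides of 0.

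Ratios between pairs of genes show the same mix without the constraint that shares add up. Of the 15 pairs, 4 had the same direction in 6 of 6 rats, and each of these set Cytb against another gene. The 4 pairs share Cytb, so they restate the difference in its share and are not independent results. No such count was made for pairs of other genes, so no background can be set beside it. The reads of Co1, Co2, Co3 and Atp6 relative to Cytb were higher in TNC by 0.19, 0.12, 0.11 and 0.11 on the log2 scale, with standard errors of 0.058, 0.034, 0.014 and 0.019 (each p = 0.0312 in the exact sign-flip permutation test, adjusted p = 0.117 over the 15 pairs). These pairs were compared after the shares had been seen, and 0 of the 15 passed the correction. The ratio of Co3 to Cytb was the steadiest of the 4, with log2 differences from 0.05 to 0.15 over the rats. For Atp8 to Cytb, where few reads were counted, 4 of 6 rats were higher in TNC (exact sign-flip permutation test, p = 0.188, adjusted p = 0.402).

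Co3 and Atp6, which adjoin each other on the mitochondrial genome without a tRNA between them, kept nearly the same ratio in both regions. The log2 ratio of Co3 to Atp6 differed by 0.00033 on average and lay between -0.05 and 0.05 in each of the 6 rats (exact sign-flip permutation test, p = 1). Its SD over the rats was 0.036. Co3 to Cytb, Atp6 to Cytb and Co2 to Atp6 varied about as little, with SDs of 0.035, 0.045 and 0.056, although none of these pairs adjoin. Co2 to Co3 and Co2 to Cytb varied more, with SDs of 0.080 and 0.084. The pairs of Co1 with Co2, Co3, Atp6 and Cytb had SDs of 0.13 to 0.15. In R102 the log2 ratio of Co1 to Atp6 was 0.36 higher in TNC, against -0.05 to 0.09 in the other rats. The large Co1 difference of R102 was thus only in part shared by the other genes.

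Whether a rat with a high level in SC also had a high level in TNC was examined across the 6 rats for each gene. Pearson's r of log2 CPM was 0.713 for Atp6 (exact permutation p = 0.103), 0.649 for Co3 (p = 0.153), 0.592 for Cytb (p = 0.233), 0.398 for Co2 (p = 0.467), 0.0555 for Co1 (p = 0.925) and 0.0512 for Atp8 (p = 0.912). Spearman's rho was 0.6, 0.6, 0.543, 0.257, -0.0286 and 0.314 in the same order, with exact permutation p from 0.242 to 1. The lowest adjusted p over the 6 relations was 0.458 for r and 0.594 for rho (exact permutation tests). Without the 2 rats farthest from the SC median r was -0.168 for Atp6, 0.977 for Co3, 0.905 for Cytb, 0.427 for Co2, 0.634 for Co1 and 0.025 for Atp8. No relation between the regions was detectable with 6 rats.

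Outside the 6 genes, likeness was measured as Pearson's r over the 12 libraries between a gene's log2 CPM and the mean log2 CPM of the 6 genes, among 9534 other genes that averaged 10 CPM or more. These points share libraries and scaling, and r is given as a description. The highest r was 0.944 for ENSRNOG00000000172, with 0.933 within SC and 0.958 within TNC. This gene was of low abundance, with 11.8 ± 1.36 CPM in SC and 12.3 ± 2.57 CPM in TNC (SD, n = 6). The next was ENSRNOG00000030644, also with r = 0.944, and with 0.93 within SC and 0.984 within TNC. It was abundant, with 3146 ± 400 CPM in SC and 3496 ± 843 CPM in TNC (SD, n = 6), and its TNC spread was the larger one as in the 6 genes. Its within-rat log2 differences were 0.23, 0.40, 0.34 and 0.14 in R101 to R104 and -0.12 and -0.23 in R105 and R106, and it was not called between the regions (adjusted p = 0.168, edgeR). Among the 6 genes with the highest r, the gene at rank 4 (r = 0.912) was called higher in TNC. Its log2 fold change was 0.21 (adjusted p = 0.0356, edgeR). The rest were not called (adjusted p from 0.168 to 0.824, edgeR). The identifiers are not paired with names in the sources used here.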

How the data were processed

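Each deposited file holds the raw read counts per gene of 1 library. Per the labels' protocols, the authors captured tissue from 14 µm sections by laser and selected poly(A) RNA. Per the submitters' processing notes, STAR and HTSeq were used. Settings, strandedness, build and annotation are not given in these sources, and alignments to several places, such as nuclear copies of mitochondrial sequence, are left out by HTSeq's default. HTSeq's summary lines stayed out of library sizes and tests.

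Genes were filtered with filterByExpr (minimum count 10, leaving 13833) and scaled by TMM. The main test was edgeR's quasi-likelihood test on rat plus region over all 12 libraries, with Benjamini-Hochberg adjustment over all genes tested. A prior count of 2 was added for log2 CPM. The rat pairs the libraries, since both regions came from each rat: deviations from the region means correlated between 0.142 and 0.195 within rats and at most at 0.0491 between rats. Whether separate captures were pooled is not given. Shares and ratios were tested by exact sign flips (64 patterns), and relations over all 720 pairings. The model and the permutation tests were tested on simulated data first. The alternatives were other scalings, filters and tools, thinning, no block, each rat left out and sets of 3 rats. The 6 genes, the lists and the alternatives were chosen with earlier results of these data known. The 6 genes are all named, and of the genes most like them the first 2. Symbols of the lists of nuclear-encoded subunits and cell type markers matched none (0) of the identifiers, so these lists, gene lengths and levels per length were not analysed here; CPM of different genes therefore count reads and do not rank their levels. The tools were DESeq2 1.42.0, limma 3.58.1 and edgeR 4.0.16 under R 4.3.3.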

Additional observations from a re-analysis of the deposited data

Results flagged for a closer look

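The TNC library of R104 lay far from its group in 1 measure: Co2 took 11.1% of the reads of the 6 genes there, while the remaining TNC libraries lay between 9.42% and 9.97%. In all, 34 groups of 6 values were searched for such a value, and about 5% of groups hold one by chance.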

How the results depend on the processing

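Under the other scalings, filters and tools, thinning, and the fit with no replicate block, 0 of the 6 genes were called, and the adjusted p of Cytb ranged from 0.156 to 0.616. With no replicate block the log2 fold change was 0.11 for Co1 and -0.09 for Cytb, and 3627 genes of all tested were called against 4192. Signs turned where values lay near 0. Upper-quartile scaling gave log2 fold changes of -0.016 (Co2), -0.029 (Co3), -0.029 (Atp6) and -0.0102 (Atp8), leaving the 6 genes out of the library size gave -0.0026 (Co3) and -0.00299 (Atp6), and a filter of 1 CPM in 6 libraries gave -0.00033 (Co3) and -0.00069 (Atp6); the cause was not tested. With 1 rat left out, 0 genes were called, and the log2 fold changes ranged from -0.0083 to 0.18 (Co1), -0.036 to 0.099 (Co2), -0.0498 to 0.086 (Co3), -0.046 to 0.079 (Atp6), -0.065 to 0.0896 (Atp8) and -0.16 to -0.032 (Cytb), each highest without R106. The sets of 3 rats coincide with the sign of the difference in summed share among gene reads. Their calls therefore favour that sign and are no evidence of it. R101 to R103 alone called 4 genes higher in TNC, with 0.31 (Co1), 0.19 (Co2), 0.21 (Co3) and 0.18 (Atp6), and gave 0.10 for Cytb, uncalled. R104 to R106 alone called 1 higher in SC, Cytb at -0.31. Uncalled in that set were -0.14 (Co1), -0.15 (Co2), -0.20 (Co3), -0.18 (Atp6) and -0.15 (Atp8). Among all genes tested, R101 to R103 alone called 2311 of 13922, with 1113 higher in TNC. R104 to R106 alone called 2845 of 13923, with 1342 higher in SC. The share of Cytb among the 6 genes differed by -1.32 to -1.07 points with a rat left out, where 5 pairs allow no p under 0.0625, and that of Co1 by 0.835 to 1.97. The others ranged from -0.145 to 0.161 (Co2), -0.348 to -0.0347 (Co3), -0.283 to 0.103 (Atp6) and -0.0072 to 0.00802 (Atp8). Without pairing, the exact permutation p of the Cytb share was 0.0368 (adjusted p = 0.221). The log2 ratio of Atp8 to Atp6 ranged from -0.019 to 0.0602 and the difference in summed share from -0.137 to 0.15 points.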
